A study of Mus musculus with 9 samples.

Results

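Genomic imprinting leaves a gene active from the copy inherited from 1 parent only. The 10 imprinted genes described here, H19, Igf2, Plagl1, Mest, Peg3, Ndn, Meg3, Dlk1, Cdkn1c and Grb10, were chosen by name as genes that act on growth before birth, by a rule that uses no measured value but with earlier results of these data known. They are 10 of 41710 gene names listed, and their reads were summed over all transcripts of a gene. The transcriptome of whole frozen hearts was sequenced from male FVB/N mice aged 8 months, as 3 libraries for each of the groups Tg-RKIP, Tg-GRK2 and FVB, the last without a transgene. Tg-RKIP mice carry a transgene for the Raf kinase inhibitor protein RKIP, encoded by Pebp1, under the alpha-MHC promoter, which drives expression in heart muscle cells. The libraries labelled Tg-GRK2, called the Tg-GRK2 label, are named for the G protein-coupled receptor kinase GRK2, and the promoter of that transgene is not given in the sources used here. All groups share the FVB/N background, sex, age and diet. Each library was read as single ends of 50 bases.

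Imprinted genes are marked in the germ line by DNA methylation at control regions, and each control region acts on a cluster of neighbouring genes. Many paternally expressed genes, such as Igf2, favour growth of the fetus, whereas many maternally expressed genes, such as H19, Cdkn1c and Grb10, restrain it. Most fall to low levels in the heart after birth. Whether their messages differ between these groups of adult hearts is the comparison made here.

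Total reads ranged from 25458108 to 33447654 per library. Pebp1 stood at 15967 to 16371 TPM (reads scaled by transcript length and by library) in Tg-RKIP and at 316 to 330 TPM in the other 6 libraries, whereas Grk2 was at 24.9 to 30.5 TPM in the libraries labelled Tg-GRK2 and at 25.9 to 27.9 TPM in FVB, so that label could not be checked by its own gene. Mitochondrial genes took 11.5% to 11.8% of reads in Tg-RKIP and 22.4% to 23.2% in the other groups. The scale of a level therefore matters, and differences are given on the TMM scale of edgeR, which centres the typical gene, unless another scale is named. Replicate 1 labelled Tg-GRK2 held 384039 reads of the ribosomal gene Rn18s against 55110 to 78546 elsewhere. Leaving it out changed no call on the 10 genes. The labels number a heart for each library and say no more of its source, so p-values measure the spread between these libraries, which may be technical. In whole hearts, fewer cells of a type and less RNA per cell cannot be told apart.

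Sequences that bear on the results are shown first. H19 is a spliced RNA that also holds the hairpin of miR-675, and the 2 mature forms from RefSeq (GRCm38.p6, minus strand of chromosome 7) are printed because H19 was among the genes that rose. Capitals mark the seed, bases 2 to 8.
mmu-miR-675-5p at chr7:142577112-142577133: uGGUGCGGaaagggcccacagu
mmu-miR-675-3p at chr7:142577078-142577099: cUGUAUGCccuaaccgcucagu
The 84-base hairpin lies wholly within an exon of the longest H19 transcript, and the row of the hairpin itself held 0 reads in all 9 libraries, where a count of 0 allows up to 3 reads.

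RefSeq promoter windows, each from 250 bases before to 50 bases after a start site, were at hand for 8 of the 10 genes and are printed for Grb10, Plagl1 and Ndn, and further on for Peg3. Grb10 has a pair of start sites, and the 2 windows are shown because the reads assigned to their transcripts differed between Tg-RKIP and FVB. Fewer were assigned in Tg-RKIP to a transcript of the first start and more to a transcript of the second. How the reads were divided among transcripts is not stated. Capitals mark CG dinucleotides, the bases that imprinting methylates.
Grb10, upstream start, chr11:12037371-12037670, minus strand: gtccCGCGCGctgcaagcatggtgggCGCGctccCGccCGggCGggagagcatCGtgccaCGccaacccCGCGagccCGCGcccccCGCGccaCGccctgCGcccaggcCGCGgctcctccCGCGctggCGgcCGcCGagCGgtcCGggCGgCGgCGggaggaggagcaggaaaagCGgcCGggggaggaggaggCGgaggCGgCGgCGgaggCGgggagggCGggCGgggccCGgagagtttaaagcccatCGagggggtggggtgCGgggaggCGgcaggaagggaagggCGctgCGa
Grb10, downstream start, chr11:12027922-12028221, minus strand: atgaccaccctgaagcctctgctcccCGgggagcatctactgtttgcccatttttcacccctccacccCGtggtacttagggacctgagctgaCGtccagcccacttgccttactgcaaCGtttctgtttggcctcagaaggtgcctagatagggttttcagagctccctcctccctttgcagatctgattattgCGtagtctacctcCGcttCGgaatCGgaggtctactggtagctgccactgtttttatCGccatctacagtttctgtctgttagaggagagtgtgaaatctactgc
Plagl1, chr10:13090582-13090881, plus strand: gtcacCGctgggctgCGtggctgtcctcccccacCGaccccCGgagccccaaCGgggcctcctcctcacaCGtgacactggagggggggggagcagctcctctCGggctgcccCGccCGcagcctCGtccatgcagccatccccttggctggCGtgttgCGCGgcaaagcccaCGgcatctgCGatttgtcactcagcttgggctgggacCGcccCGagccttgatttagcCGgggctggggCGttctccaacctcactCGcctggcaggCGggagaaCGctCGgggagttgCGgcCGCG
Ndn, chr7:62348027-62348326, plus strand: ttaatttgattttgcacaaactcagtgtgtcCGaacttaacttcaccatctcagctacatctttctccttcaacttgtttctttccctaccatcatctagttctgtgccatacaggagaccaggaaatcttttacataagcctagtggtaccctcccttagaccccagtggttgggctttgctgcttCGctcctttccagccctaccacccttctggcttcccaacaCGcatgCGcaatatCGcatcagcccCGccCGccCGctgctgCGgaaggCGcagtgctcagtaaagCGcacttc
The upstream Grb10 window held 45 CG dinucleotides and 80.0% G and C bases, the downstream window 9 and 52.3%, against medians of 7 and 52.7% over all 32851 promoter windows. Plagl1 held 26 CG dinucleotides and Ndn 11.

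The palindrome GGGGCCCC, a motif described for the zinc finger protein that Plagl1 encodes and identical on both strands, was searched in the same windows. It occurred in 354 of the 32851 windows (1.08%) and in 1 of the 15 windows of the 10 genes, that of Peg3, where it is in capitals.
Peg3, chr7:6730370-6730669, minus strand: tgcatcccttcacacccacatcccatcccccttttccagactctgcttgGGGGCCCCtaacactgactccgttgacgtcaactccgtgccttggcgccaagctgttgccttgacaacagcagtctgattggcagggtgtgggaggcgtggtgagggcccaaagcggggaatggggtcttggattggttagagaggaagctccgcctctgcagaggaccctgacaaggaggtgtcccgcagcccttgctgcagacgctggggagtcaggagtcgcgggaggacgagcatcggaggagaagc
The match is a string of letters in this window and was not tested as a binding site.

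In Tg-RKIP against FVB, 9 of the 10 genes had enough reads to be tested. H19, Plagl1, Ndn and Meg3 were higher, Igf2, Peg3 and Grb10 were lower, and Mest and Cdkn1c did not pass the threshold (adjusted p under 0.05 in edgeR's quasi-likelihood test). Of all 15504 genes tested, 36.8% were called higher and 37.1% lower, so 4 higher and 3 lower of 9 is close to the background of this comparison. The median log2 fold change of the 9 genes was 0.01, and that of all genes tested 0.01. In the libraries labelled Tg-GRK2 against FVB, 1 of the 9 genes, Grb10, was called higher and 0 were called lower by edgeR (1, Ndn, at an unadjusted p under 0.05, and 0 by DESeq2 and by limma on TPM), where 12.2% of all genes were higher and 12.2% lower. Against the libraries labelled Tg-GRK2, Tg-RKIP again had 4 of the 9 genes higher and 3 lower, with backgrounds of 37.9% higher and 36.6% lower. The comparisons share libraries and are not independent of each other.

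**Figure D1:**
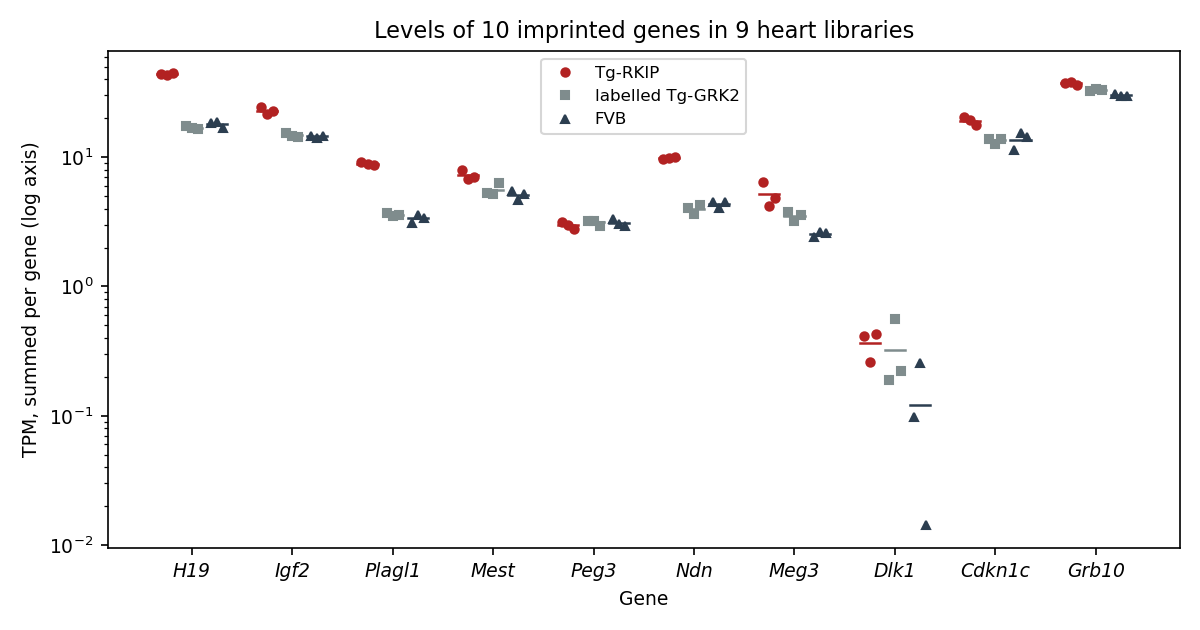
TPM summed per gene (log axis) for the 10 imprinted genes, with a point for each of the 3 libraries of a group and a line at the group mean. H19, Plagl1 and Ndn of Tg-RKIP stand clear of both other groups, Peg3 overlaps in all groups, and Dlk1 lies below 1 TPM throughout.

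H19 and Igf2 lie next to each other on chromosome 7 and share enhancers that a methylated insulator directs to one or the other. H19 (chr7:142129266-142131880, minus strand, in GRCm39, the build that the submitters' processing notes list) codes for no protein. Its level was 43.7, 43.4 and 44.5 TPM in the Tg-RKIP libraries, 17.4, 16.9 and 16.5 TPM in those labelled Tg-GRK2, and 18.5, 18.6 and 16.7 TPM in FVB. Every Tg-RKIP library was above every other library, while the other groups overlapped. The log2 fold change of Tg-RKIP against FVB was 0.88 ± 0.052 (SE, adjusted p = 1.31e-12 by edgeR's quasi-likelihood test), and that of the Tg-GRK2 label against FVB was 0.06 ± 0.059 (adjusted p = 0.523), which passed at 0.16 when FVB replicate 2 was left out. Both long transcripts of H19 rose: H19_1 by 0.83 (adjusted p = 0.00971) and H19_4 by 1.19 (adjusted p = 0.0122) on the log2 scale when each transcript was fitted on its own.

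Igf2 (chr7:142204503-142220553, minus strand) encodes insulin-like growth factor 2, the main growth factor of the fetus. The normalised read count of Igf2 was 868, 850 and 875 in Tg-RKIP, 1140, 1073 and 1113 in the Tg-GRK2 label, and 1062, 1030 and 1093 in FVB. All 3 Tg-RKIP libraries were below all others, and the difference from FVB was a log2 fold change of -0.30 ± 0.038 (adjusted p = 5.02e-07). The same gene in TPM read the other way, with 24.4, 21.7 and 22.7 TPM in Tg-RKIP and 14.6, 14.1 and 14.7 TPM in FVB. A transcript of 958 bases in 2 exons, Igf2_1, carried that rise. All of its bases lie within exons of the main coding transcript Igf2_3, which is 3708 bases long and holds 2750 bases that Igf2_1 lacks, so no base is found in Igf2_1 only.

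Igf2_1 held 205, 206 and 174 reads in Tg-RKIP, 13, 20 and 13 in the Tg-GRK2 label, and 33, 41 and 24 in FVB. Its share of Igf2 reads was 19.6% ± 2.25 (SD, n = 3) in Tg-RKIP and 3.41% ± 0.754 in FVB. The log2 fold change against FVB was 2.26 ± 0.29 (adjusted p = 0.000591), in a fit where 34.0% of 34991 transcripts were called in either direction. Igf2_3 held 681, 870 and 646 reads in Tg-RKIP and 712, 736 and 808 in FVB, with a log2 fold change of -0.38 (adjusted p = 0.0204) that no longer passed when only library size was scaled (-0.04, adjusted p = 0.787) or without any one of the 3 Tg-RKIP libraries or FVB replicate 3 (-0.39 to -0.29). Without Igf2_1 the level of Igf2 was 11.7 ± 0.0681 TPM in Tg-RKIP, 14.0 ± 0.663 in the Tg-GRK2 label and 12.7 ± 0.612 in FVB (SD, n = 3), and the Tg-RKIP values were below both other groups. The exact two-sided permutation test gave p = 0.1 for Tg-RKIP against each group, the smallest value that 3 libraries against 3 can give. Igf2_1 was set aside because its rise had been seen in these same data, and all its bases are shared with Igf2_3. The lower level without Igf2_1 is therefore not a separate test of whether Igf2 fell.

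The ratio of H19 reads to Igf2 reads does not depend on how a library is scaled. It was 1.49 ± 0.0551 (SD, n = 3) in Tg-RKIP, 0.655 ± 0.00651 in the Tg-GRK2 label and 0.655 ± 0.0901 in FVB. The lowest Tg-RKIP value, 1.45, was above the highest FVB value, 0.759 (exact two-sided permutation test, p = 0.1). For the Tg-GRK2 label against FVB the same exact test gave p = 1.0, with means of 0.655 in both. Taken in TPM instead of reads, the ratio was 1.92 ± 0.114 in Tg-RKIP, 1.14 ± 0.0153 in the Tg-GRK2 label and 1.24 ± 0.0929 in FVB. On that scale the exact test gave p = 0.1 for Tg-RKIP against FVB and p = 0.3 for the Tg-GRK2 label against FVB. The neighbour Ins2, a gene for insulin, held 0 reads in every library. Overlapping genes such as Igf2os, antisense to Igf2, held 1 to 9 reads, too few to move the Igf2 count.

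**Figure D2:**
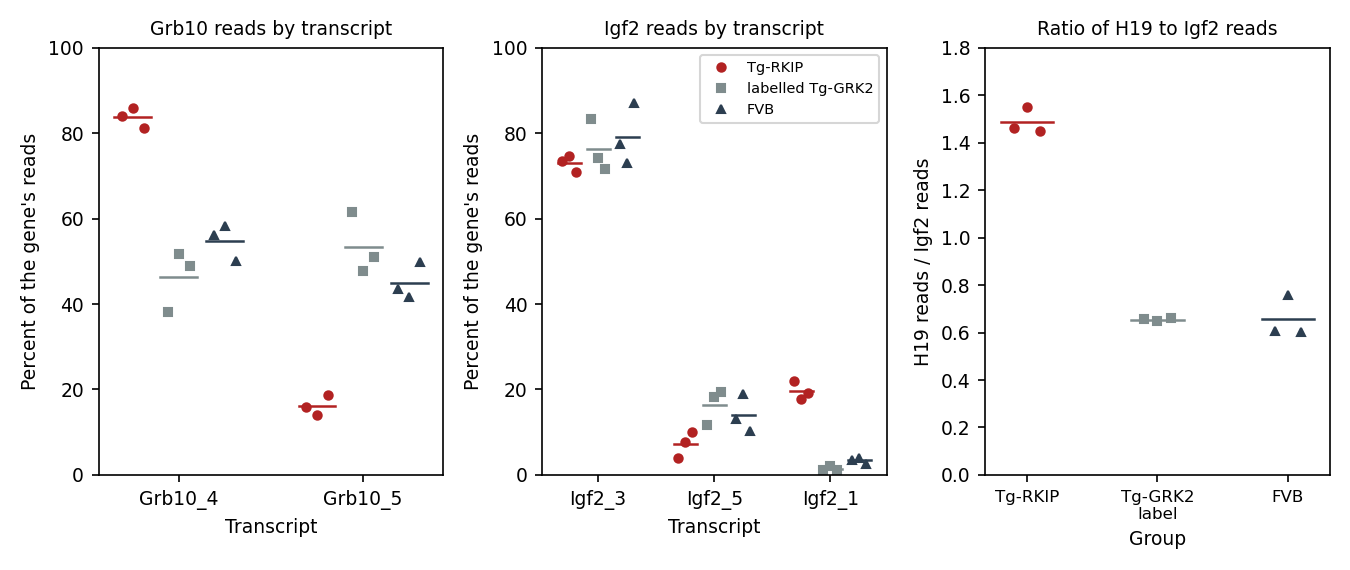
Percent of Grb10 reads and of Igf2 reads assigned to each named transcript, and the ratio of H19 to Igf2 reads, with a point per library and a line at the mean of 3. Grb10_5 falls to 14.1% to 18.7% of Grb10 reads in Tg-RKIP against 41.6% to 49.8% in FVB, and Igf2_1 and the H19 ratio stand above both other groups.

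Plagl1, Peg3 and Ndn are paternally expressed genes for nuclear proteins. Plagl1 (chr10:12936248-13007438, plus strand) encodes a zinc finger transcription factor whose known targets include other imprinted genes. It was at 9.18, 8.80 and 8.68 TPM in Tg-RKIP, 3.70, 3.54 and 3.57 TPM in the Tg-GRK2 label, and 3.12, 3.58 and 3.38 TPM in FVB. This was the largest difference among the 9 genes tested, a log2 fold change of 1.11 ± 0.056 (2.16-fold, adjusted p = 7.51e-14). In the Tg-GRK2 label it was 0.09 ± 0.066 (adjusted p = 0.337). A single transcript, Plagl1_20, held 99.9% of its reads in Tg-RKIP and 98.2% in FVB.

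Ndn (chr7:61996317-62000010, plus strand), an intronless gene for necdin, a protein of the MAGE family that restrains cell division and is abundant in neurons, was also higher in Tg-RKIP. Its level was 9.61, 9.86 and 10.1 TPM in Tg-RKIP, 4.04, 3.64 and 4.26 TPM in the Tg-GRK2 label, and 4.50, 4.05 and 4.53 TPM in FVB. The Tg-RKIP libraries did not overlap the others, and the log2 fold change against FVB was 0.76 ± 0.063 (adjusted p = 4.41e-10). The Tg-GRK2 label was not past the threshold (-0.17 ± 0.073, adjusted p = 0.0969). It passed at -0.23 when replicate 3 of that label was left out. Among the neighbours of Ndn, Ube3a was lower in Tg-RKIP on the TMM scale (-0.64 ± 0.022, adjusted p = 8.35e-17) but higher in TPM (0.16, adjusted p = 0.0311 by limma), Snrpn was lower by TMM (-0.39, adjusted p = 1.29e-09) and not past the threshold in TPM (0.03), and Magel2 was below the filter. Peg12 was at 0.44 by TMM (adjusted p = 0.185) and higher with library size only (0.815, adjusted p = 0.0158), and Mkrn3 was at 0.01 (adjusted p = 0.977). Whether Ndn and its neighbours differ in their change was not tested.

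Peg3 (chr7:6706891-6733430, minus strand) encodes a large zinc finger protein. Its normalised read count was 432, 411 and 383 in Tg-RKIP, 557, 556 and 522 in the Tg-GRK2 label, and 594, 554 and 522 in FVB. The Tg-RKIP counts lay below both other groups, with a log2 fold change against FVB of -0.44 ± 0.060 (adjusted p = 8.27e-07). In TPM the groups overlapped, at 3.18, 2.98 and 2.77 in Tg-RKIP and 3.34, 3.06 and 2.93 in FVB, and the fall was not past the threshold there (-0.06, adjusted p = 0.557 by limma). Its neighbour Zim1 was lower in Tg-RKIP (-1.72 ± 0.23, adjusted p = 8.16e-07) and higher in the Tg-GRK2 label (0.59 ± 0.18, adjusted p = 0.0213) than in FVB. Usp29, which shares the Peg3 control region, held 3 reads over the 3 Tg-RKIP libraries and 13 over FVB, a ratio of 0.178 (95% exact interval 0.0326 to 0.649, counting error only).

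Meg3 and Dlk1 lie in a cluster on chromosome 12. Meg3 (chr12:109506884-109538160, plus strand) is a maternally expressed RNA with no protein. Its level was 6.38, 4.19 and 4.86 TPM in Tg-RKIP, 3.74, 3.21 and 3.57 TPM in the Tg-GRK2 label, and 2.40, 2.62 and 2.59 TPM in FVB. In TPM the groups did not overlap and stood in that order. The normalised read counts of the Tg-GRK2 label (115, 80.8 and 108) overlapped those of FVB (86.6, 93.0 and 84.9). The log2 fold change of Tg-RKIP against FVB was 0.56 ± 0.13 (adjusted p = 0.000657) and that of the Tg-GRK2 label 0.20 ± 0.14 (adjusted p = 0.334), which passed in TPM at 0.45 (adjusted p = 0.0463 by limma). Its 72 to 164 reads per library made it the least precise of the 9 genes, and with its most abundant transcript alone the difference was 0.26 (adjusted p = 0.723). Against the Tg-GRK2 label the difference was 0.36 (adjusted p = 0.0149) and was not past the threshold without Tg-RKIP replicate 1 (0.31) or without replicate 2 of the Tg-GRK2 label (0.23).

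Rian, another RNA of the same maternal group that lies beyond Meg3, held 256, 334 and 256 reads in Tg-RKIP, 204, 189 and 213 in the Tg-GRK2 label, and 136, 163 and 128 in FVB. It was higher in Tg-RKIP and in the Tg-GRK2 label than in FVB, by 0.62 ± 0.081 (adjusted p = 6.73e-07) and by 0.41 ± 0.086 (adjusted p = 0.00106). Dlk1 (chr12:109418749-109429262, plus strand), a paternally expressed membrane protein that holds back fat cell maturation, had 9, 8 and 8 reads in Tg-RKIP, 2, 7 and 3 in the Tg-GRK2 label, and 3, 3 and 1 in FVB, below the filter. Its summed reads gave a ratio of Tg-RKIP to FVB of 2.76, with a 95% exact interval of 1.16 to 7.56 that covers counting error only. Dio3, at the far end of the cluster, had 30 reads in Tg-RKIP and 6 in FVB over 3 libraries each, a ratio of 3.87 (1.58 to 11.4). Rtl1 and Mirg held at most 10 reads per group.

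Cdkn1c (chr7:143012076-143014787, minus strand) encodes p57, an inhibitor of cyclin-dependent kinases. Its normalised read count was 495, 483 and 463 in Tg-RKIP, 458, 455 and 424 in the Tg-GRK2 label, and 424, 515 and 492 in FVB. The groups overlapped, and the log2 fold change of Tg-RKIP against FVB was 0.01 ± 0.064 (adjusted p = 0.927). In TPM it stood at 20.3, 19.3 and 17.8 in Tg-RKIP and 11.4, 15.3 and 14.2 in FVB, a log2 difference of 0.49 (adjusted p = 0.000983 by limma) beside 0.43 for the median gene on that scale. In the same cluster, Kcnq1, a potassium channel of the heart, fell by 1.24 ± 0.046 (adjusted p = 2.88e-16), Slc22a18 rose by 1.84 ± 0.25 (adjusted p = 1.25e-06) and Tssc4 by 0.75 ± 0.071 (adjusted p = 3.75e-09). Each kept that direction under all 4 scalings. Kcnq1ot1, the RNA that silences the cluster on the paternal copy, did not pass the threshold in Tg-RKIP (0.04 ± 0.14, adjusted p = 0.806), and Phlda2 was below the filter.

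Mest (chr6:30723546-30748464, plus strand) encodes a protein with the fold of a hydrolase. Its level was 7.95, 6.75 and 7.09 TPM in Tg-RKIP, 5.30, 5.20 and 6.35 TPM in the Tg-GRK2 label, and 5.48, 4.68 and 5.19 TPM in FVB. The Tg-RKIP libraries were above the others in TPM, by 0.50 on the log2 scale, again close to the median gene. On the TMM scale the difference was 0.00 ± 0.082 (adjusted p = 0.978). The reads swung between Mest_9 and Mest_10, transcripts of different start sites, within groups as well as between them: Mest_9 held 95, 24 and 30 reads in FVB and 28, 84 and 154 in the Tg-GRK2 label. Copg2 lies on the opposite strand and overlaps Mest, with 1275 to 2152 reads per library, and the sources used here do not state whether counting used strand.

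Grb10 (chr11:11880508-11988683, minus strand) encodes an adaptor that damps signalling by the insulin and IGF1 receptors. It was the most abundant of the 10 genes in FVB. The normalised read count was 2815, 2864 and 2766 in Tg-RKIP, 3263, 3326 and 3340 in the Tg-GRK2 label, and 3155, 3059 and 3109 in FVB. None of the 3 groups overlapped. The log2 fold change against FVB was -0.14 ± 0.025 in Tg-RKIP (adjusted p = 2.79e-05) and 0.09 ± 0.025 in the Tg-GRK2 label (adjusted p = 0.009), that is 0.907-fold and 1.07-fold. In TPM the Tg-RKIP libraries were above FVB instead, at 37.5, 37.8 and 36.2 against 30.9, 29.7 and 30.0. That difference was 0.30 (adjusted p = 1.25e-05 by limma), beside 0.43 for the median gene on that scale.

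The transcripts of Grb10 differed far more than their sum. Grb10_5, of 17 exons, starts 19 bases from the upstream RefSeq start printed above, and Grb10_4, of 16 exons, starts at the downstream one. They share 4686 bases, and 375 bases are found in Grb10_5 only and 69 in Grb10_4 only. Grb10_5 held 476, 554 and 538 reads in Tg-RKIP, 1864, 1437 and 1779 in the Tg-GRK2 label, and 1186, 1245 and 1312 in FVB. Its log2 fold change against FVB was -1.58 ± 0.12 in Tg-RKIP (adjusted p = 3.3e-05) and 0.35 ± 0.12 in the Tg-GRK2 label (adjusted p = 0.219). Grb10_4 held 2530, 3368 and 2341 reads in Tg-RKIP, 1151, 1554 and 1710 in the Tg-GRK2 label, and 1532, 1745 and 1319 in FVB, with a log2 fold change of 0.51 ± 0.12 in Tg-RKIP (adjusted p = 0.0127, and 0.0503 at a log2 fold change of 0.44 without FVB replicate 3). As a share of Grb10 reads, Grb10_5 was 16.2% ± 2.30 in Tg-RKIP, 53.4% ± 7.24 in the Tg-GRK2 label and 44.9% ± 4.30 in FVB (SD, n = 3). These directions held when only library size was scaled, at -1.24 for Grb10_5 and 0.84 for Grb10_4. How single reads of 50 bases were divided among transcripts is not stated.

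Of the 25 transcripts of the 10 genes that were tested, 11 were called in Tg-RKIP against FVB, beside 34.0% of all transcripts, with 6 above FVB and 5 below. Peg3_1, a transcript with a retained intron, was the most reduced of them, with 1, 0 and 0 reads in Tg-RKIP and 16, 9 and 4 in FVB. Around Grb10, the neighbour Ddc, an enzyme of amine synthesis, fell by 1.35 ± 0.16 (adjusted p = 1.44e-07), and Cobl, an actin nucleator, rose by 0.51 ± 0.096 (adjusted p = 6.48e-05).

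**Figure D3:**
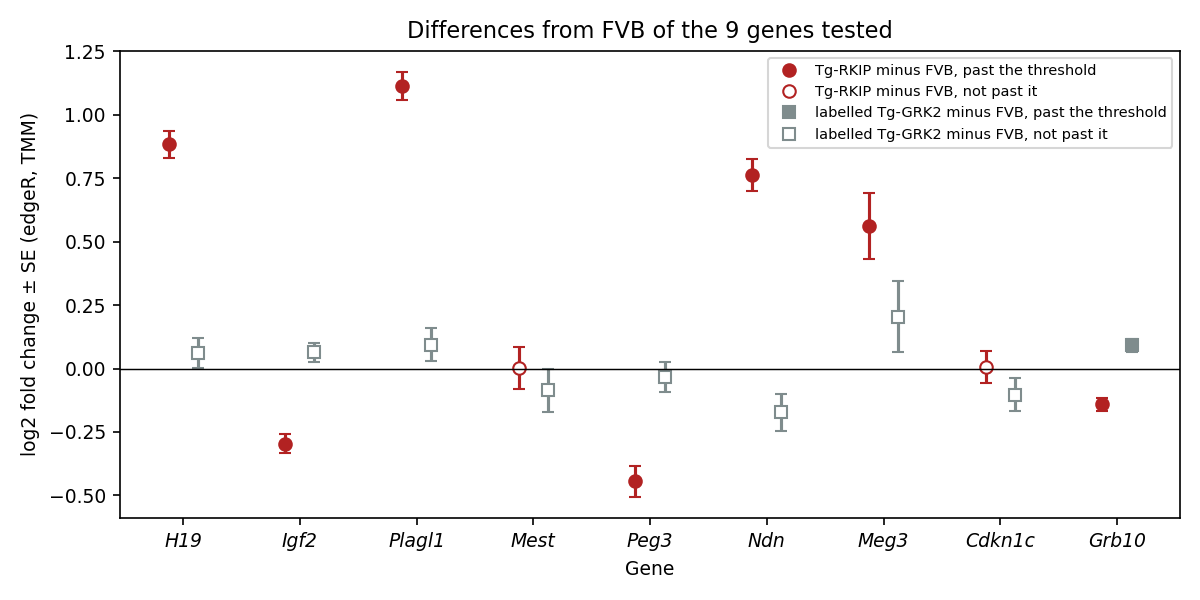
Log2 fold change ± SE (edgeR, TMM) of the 9 genes tested, for Tg-RKIP against FVB and for the Tg-GRK2 label against FVB; filled points passed the threshold. In Tg-RKIP the values run from -0.44 for Peg3 to 1.11 for Plagl1, while the Tg-GRK2 label stays between -0.17 and 0.20.

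In Tg-RKIP against FVB, the calls on Igf2, Peg3, Grb10, Mest and Cdkn1c depended on the scale, and those on H19, Plagl1, Ndn and Meg3 held under all 4 scalings. With reads scaled to library size only, 7 of the 9 genes were higher in Tg-RKIP than in FVB and 0 lower by edgeR, and with TPM tested by limma 8 were higher and 0 lower, with 0 lower also at an unadjusted p under 0.05 in both. With reads of mitochondrial genes and of Pebp1 set aside, 6 were higher and 2 lower. These scales also moved the median log2 fold change of all genes, to 0.38, 0.43 and 0.20 in that order, and the share of called genes that were higher went from 49.8% with TMM to 78.6%, 82.0% and 66.0%. Relative to the median gene on the TPM scale, H19 stood at 0.86, Plagl1 at 0.95, Ndn at 0.73, Meg3 at 0.55, Peg3 at -0.49, Grb10 at -0.13, Igf2 at 0.23 with Igf2_1 included, Mest at 0.07 and Cdkn1c at 0.07. In TPM, 78.8% of the genes tested did not overlap between Tg-RKIP and FVB, and 33.8% between the Tg-GRK2 label and FVB. Of the 9 genes, 8 did not overlap in the first comparison and 2, Meg3 and Grb10, in the second.

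**Figure D4:**
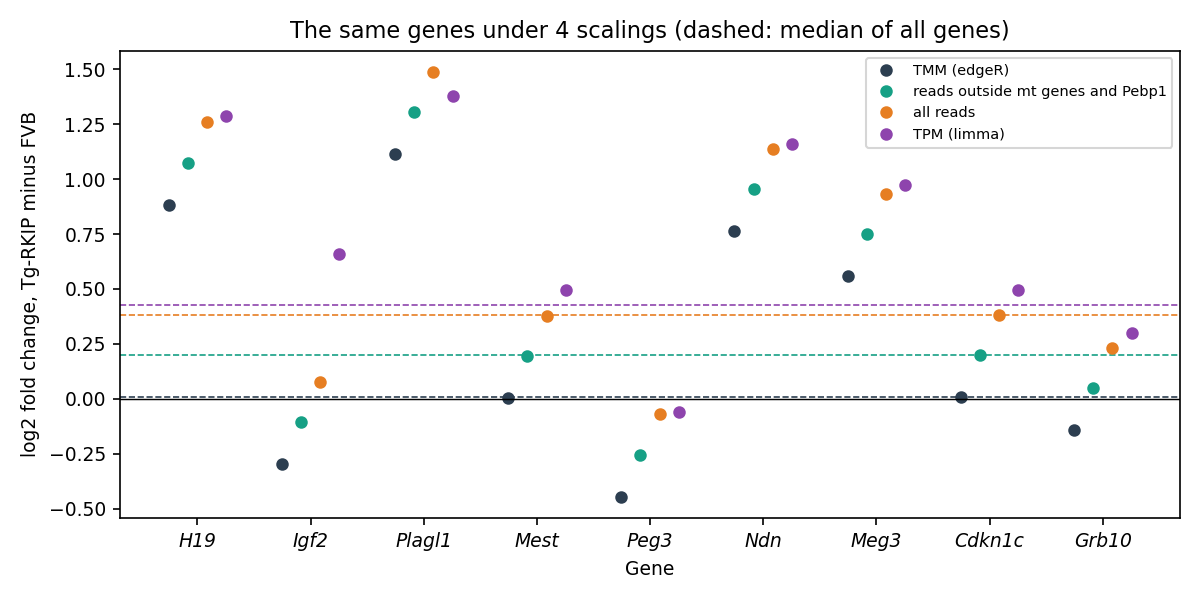
Log2 fold change of Tg-RKIP against FVB for the 9 genes under 4 scalings, with a dashed line at the median of all genes for each. H19, Plagl1, Ndn and Meg3 lie above their median line under every scaling, Peg3 below it under every scaling, and Igf2 below it except in TPM.

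The order of levels in TPM, which is per length, placed Grb10 first in FVB at 30.2 ± 0.615 (SD, n = 3), followed by H19 at 18.0, Igf2 at 14.5 and Cdkn1c at 13.6, the last pair overlapping. In the Tg-GRK2 label the first 4 kept that order. In Tg-RKIP, H19 at 43.9 TPM passed Grb10 at 37.2 TPM, and no neighbours in the order overlapped. The 10 genes together held 155 to 163 TPM in Tg-RKIP, 97.5 to 99.2 TPM in the Tg-GRK2 label and 94.2 to 96.0 TPM in FVB.

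Another 51 imprinted genes were in the tables, and 40 were tested. In Tg-RKIP against FVB 17 were higher and 18 lower, with a median log2 fold change of 0.03, beside 36.8% higher and 37.1% lower over all genes. Of these, 17 were higher and 7 lower under each of the 4 scalings in which they were tested. The scalings other than TMM called more genes higher than lower over all genes, with 66.0% to 82.0% of called genes higher. The share of all genes that held under each scaling was not counted, so 17 and 7 have no background here. Nnat, a membrane proteolipid of neurons and endocrine cells, rose by 2.76 ± 0.13 (6.79-fold, adjusted p = 1.7e-14), with 313, 399 and 335 reads in Tg-RKIP and 46, 34 and 39 in FVB. Nap1l5 rose by 2.18 (adjusted p = 8.7e-13) and Peg10, a gene derived from a retrotransposon, by 1.04 (adjusted p = 2.02e-05), beside Slc22a18 and Tssc4 above. The largest falls that held under every scaling in which the gene was tested were those of Zim1 (3 scalings, without TPM), of the organic cation transporter Slc22a3 (-1.38, adjusted p = 3.9e-13), of the amino acid transporter Slc38a4 (-1.36, adjusted p = 1.62e-11) and of Ddc. Snurf was listed at 0 in the 3 Tg-RKIP libraries, but also in FVB replicate 1 and in replicate 1 of the Tg-GRK2 label, and it shares its locus with Snrpn, so its division of reads is uncertain.

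In the Tg-GRK2 label against FVB, 6 of the 40 were higher and 6 lower, around the background of 12.2% each. Nnat was again higher (0.70, adjusted p = 0.00383), as were Zim1 and Rian. Kcnq1ot1 (-0.43, adjusted p = 0.0480), Tssc4 (-0.27, adjusted p = 0.0214) and Zrsr1 (-0.21, adjusted p = 0.00556) were lower by TMM, and of these Tssc4 and Zrsr1 were not past the threshold in TPM. Kcnq1ot1 was not tested in TPM and was not past it with library size only (-0.41, adjusted p = 0.0527).

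Partners of the imprinted growth genes were taken as a list of 28, of which 26 were tested: growth factor receptors with their ligands and substrates, the receptor Notch1, cell cycle genes, proteins that bind Igf2 mRNA, and proteins that keep or read imprints, such as Dnmt1, Trim28, Zfp57, Zfp445 and Ctcf. In Tg-RKIP 15 were higher and 9 lower, with a median log2 fold change of 0.45, beside 36.8% higher, 37.1% lower and a median of 0.01 over all genes. With library size only 19 were higher and 5 lower, and of 25 tested in TPM by limma 17 were higher and 4 lower. Igf1r, the receptor that transmits the growth signal of Igf2, rose by 0.51 ± 0.033 (adjusted p = 6.26e-12), and Igf1 by 0.31 ± 0.038 (adjusted p = 2.17e-07). The insulin receptor Insr fell by 0.84 ± 0.022 (adjusted p = 9.48e-19), and Igf2r, the imprinted receptor that clears Igf2, fell by 0.72 ± 0.022 (adjusted p = 7.55e-18). Igf2bp2, which binds Igf2 mRNA, rose by 0.94 (adjusted p = 1.09e-05), while Igf2bp1 and Igf2bp3 were below the filter at 13 reads or fewer in FVB over 3 libraries.

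Cdkn1a, the p21 relative of Cdkn1c, rose by 1.62 ± 0.055 (adjusted p = 6.1e-17), from a mean of 6.33 TPM in FVB to 26.0 TPM. The cyclins Ccnd1 (0.80) and Ccnd2 (0.70) and the kinase Cdk4 (0.48) were higher as well, each with an adjusted p of at most 1.45e-10. All of these kept their direction under the 4 scalings, whereas Cdkn1b fell by 0.15 with TMM and was higher by 0.35 in TPM. For the Tg-GRK2 label against FVB, 12.2% of all genes tested were higher and 12.2% lower. Among the partners in that label, 0 of the 26 were higher by edgeR (1, Ccna2, at an unadjusted p under 0.05, 0 by DESeq2, and 1, Cdk1, in TPM by limma at 0.67, adjusted p = 0.0183) and 6 were lower. Irs2, a substrate of the insulin and IGF1 receptors, fell the most of these, by 0.88 (adjusted p = 6.76e-11), and it and Zfp445 (-0.26, adjusted p = 2.13e-06) were lower under all 4 scalings. Igf1 (-0.19), Igf1r (-0.15), Ccnd2 (-0.16) and Cdkn1b (-0.13) were lower by TMM and not past the threshold in TPM, where Igf1 was at 0.06. Igf2r, counted with the imprinted genes, was higher in the Tg-GRK2 label than in FVB by TMM (0.16 ± 0.021, adjusted p = 5.4e-06). It was higher in TPM as well (0.20, adjusted p = 0.0013 by limma).

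The genes most like each of the 9 in their profile over the 9 libraries, by Euclidean distance of centred log2 CPM, were found among all genes tested. For Plagl1 they were Anxa1, Igfbp6 and Ckb (distances 0.157 to 0.177), for H19 Mrps6, Mall and Iffo1 (0.177 to 0.205), and for Ndn Slc50a1, Dapk2 and Cidea (0.188 to 0.200). For Grb10 they were Arih1, Alpk3 and Usp48 (0.0545 to 0.0617), and for Igf2 Arcn1, Mypn and Itch (0.0748 to 0.0820). For Peg3 they were Mrpl35, Dis3l and Suz12, for Mest Pheta1, Zkscan14 and Zfp369, for Cdkn1c Ubash3b, Zfp330 and Sav1, and for Meg3 Hilpda, Asb6 and Osbpl7, the last at the widest distances (0.329 to 0.339).

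Markers of several other cell types were higher in Tg-RKIP than in FVB, while the mural, endothelial and brown adipocyte lists were mixed. Calls are by TMM, beside 36.8% higher and 37.1% lower over all genes tested, and sums are in TPM. All 10 fibroblast markers were higher in Tg-RKIP, and their sum was 1544 to 1559 TPM there, 551 to 563 in the Tg-GRK2 label and 408.5 to 412 in FVB. The 8 adipocyte markers, all higher, summed to 210 to 217 TPM in Tg-RKIP, 50.7 to 52.6 in the Tg-GRK2 label and 33.3 to 36.0 in FVB. Cartilage markers, 7 of 8 tested higher, summed to 330.4 to 338.0, 12.3 to 13.8 and 13.4 to 13.8 TPM in the same order. Neuronal markers, 5 of 11 higher and 1 lower, summed to 164 to 167, 30.4 to 33.0 and 25.6 to 27.5 TPM, macrophage markers, 6 of 7 higher and 1 lower, to 378 to 386, 162 to 167 and 149 to 153 TPM, and erythroid markers, 6 of 6 higher, to 3477 to 3645, 1666 to 1690 and 739 to 753 TPM. Most of the neuronal sum was Uchl1, at 141 to 144 TPM in Tg-RKIP and 12.5 to 14.3 TPM in FVB, and the median log2 fold change of the neuronal list was 0.17. Comp made up most of the cartilage sum, at 290 to 296 TPM in Tg-RKIP and 9.71 to 10.5 TPM in FVB. The median log2 fold change of the cartilage list was 3.48.

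Airway epithelium markers were higher in 7 of 7 tested, at 95.7 to 102 TPM in Tg-RKIP, 204 to 212 in the Tg-GRK2 label and 0.479 to 0.840 in FVB, where Scgb1a1, Scgb3a2, Bpifa1, Muc5b and Krt5 held no reads. Skeletal muscle markers, 3 of 5 higher, summed to 33.5 to 39.3, 16.8 to 17.7 and 13.6 to 16.7 TPM, with Tnnc2 at 0 in Tg-RKIP. Mural and endothelial markers had 3 of 7 higher and 4 of 7 lower each by TMM, beside 36.8% and 37.1% over all genes. Their median log2 fold changes were -0.35 and -0.46. In TPM, where the median gene was higher in Tg-RKIP than in FVB by 0.43 (log2), mural markers summed to 320 to 325, 340 to 347 and 328 to 339. Endothelial markers summed to 392 to 397, 290 to 297 and 286 to 291 TPM. Brown adipocyte markers had 2 higher and 2 lower of 4, at 2065 to 2245, 2227 to 2401 and 2316 to 2688 TPM. Most of that sum was Cox7a1, at 1025 to 1125, 1391 to 1475 and 1419 to 1651 TPM in the same order, and Cox8b. Cox8b was at 971 to 1049, 808 to 897 and 871 to 1013 TPM, and these were the 2 lower by TMM. The 2 higher were Ucp1, at 13.1 to 14.0, 5.25 to 6.61 and 0.909 to 1.36 TPM, and Cidea. Cidea was at 55.5 to 57.1, 22.1 to 23.6 and 22.6 to 24.7 TPM. Cardiomyocyte markers, the defining genes of the tissue, had 0 of 8 higher by edgeR, at an unadjusted p under 0.05 and by DESeq2, and 7 lower, and summed to 51390 to 52410, 52820 to 54490 and 55550 to 55810 TPM. Under each of the other 3 scalings 2 of the 8 were higher and 6 lower, and with library size only and in TPM the 2 were Actc1 and Tnnt2, the latter lower by TMM. The part of any of these cell types in the levels of H19, Plagl1, Ndn, Meg3 and the other genes was not tested. In the libraries labelled Tg-GRK2, fibroblast (9 of 10), adipocyte (5 of 8), airway (7 of 7) and erythroid (6 of 6) markers were higher too. Over all genes 12.2% were higher and 12.2% lower there. Counts higher and lower were 2 and 2 of 7 mural, 1 and 3 of 7 endothelial and 3 and 1 of 7 macrophage markers. They were 2 and 6 of 8 cardiomyocyte, 1 and 2 of 4 brown adipocyte and 3 and 0 of 11 neuronal markers. Skeletal muscle had 1 and 0 of 5, and cartilage 0 and 0 of 8 (0 and 1 of 6 in TPM by limma).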

How the data were processed

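Per the labels, total RNA of pulverized hearts was made into libraries of fragmented mRNA with random hexamers. The authors deposited read counts, whole numbers without normalization, for each of 127558 Ensembl transcripts. TPM values were deposited by the authors too, and they equal those recomputed from the counts and transcript lengths to within 5.50e-06. The submitters' processing notes list GRCm39. The aligner, the counting program and the use of strand are not given in the sources used here.

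Groups and replicate numbers come from the titles. Reads and TPM were summed by gene name, and the 10 genes and the lists were chosen with earlier results of these data known. The test on counts was that of edgeR 4.0.16 in R 4.3.3 (TMM, filterByExpr, glmQLFit and glmQLFTest, all 9 libraries, a mean per group) with p-values adjusted by Benjamini-Hochberg over 15504 genes, with a threshold of 0.05. For single values, means of 3 libraries against 3 were set against all their rearrangements (exact, two-sided). On data simulated for Tg-RKIP against FVB, with 14917 genes tested, 175 of 200 genes changed by known folds of 1.5 or 2 in either direction were recovered, with 4 false calls. The simulated counts started from FVB means and held no shift of mitochondrial or Pebp1 reads. They therefore cannot speak to the calls that depended on the scale. Intervals and floors of 3 reads cover counting error only.

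Alternatives were other scalings, DESeq2 1.42.0, limma 3.58.1 on log2(TPM + 0.1) and log2(TPM + 1), other filters, a test against a fold of 1.5, the replicate number as a block, each library left out, and the most abundant transcript of a gene. The fit of each transcript was added after the data had been seen. All 10 genes were named by rule, and so were their neighbours and partners. Of the other imprinted genes, those past the threshold with a mean of at least 20 normalised reads were named at both ends, 5 for Tg-RKIP and 3 for the Tg-GRK2 label. Promoter and miRNA sequences are RefSeq's (GRCm38.p6), looked up by symbol, and start sites were matched to transcripts by Ensembl identifier in GENCODE M21.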

Additional observations from a re-analysis of the deposited data

How the results depend on the processing

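Of 594 log2 fold changes of the 9 genes under 22 alternatives, 506 kept their direction and their side of the threshold. The 9 genes called higher and lower for Tg-RKIP against FVB numbered 4 and 3 in the main analysis, 7 and 0 with library size only, 8 and 0 with limma on TPM (both pseudocounts, with and without a filter), and 3 and 0 against a fold of 1.5. The same counts against the Tg-GRK2 label were 7 and 0, 8 and 0, and 3 and 0. Over all genes, 9709 were higher and 2650 lower of 15504 for Tg-RKIP against FVB with library size only. With limma on log2(TPM + 0.1) they were 8932 and 1964 of 13478, and against a fold of 1.5 they were 1975 and 1690 of 15504. Against the Tg-GRK2 label they were 9606 and 2851, 8536 and 2296, and 2033 and 1834. For the Tg-GRK2 label against FVB they were 2094 and 1654, 1772 and 815, and 82 and 73. Other imprinted genes higher and lower went from 17 and 18 to 26 and 10 with library size only, 23 and 6 with limma on TPM (24 and 7 without a filter) and 5 and 9 against a fold of 1.5, and against the Tg-GRK2 label from 16 and 17 to 25 and 10, 21 and 6 (24 and 7 without a filter), and 4 and 9. For the Tg-GRK2 label against FVB, genes higher went from 1 to 2 with limma on log2(TPM + 0.1) and to 0 with the most abundant transcript or a fold of 1.5, and other imprinted genes from 6 and 6 to 3 lower with DESeq2, 1 lower with limma on TPM (3 higher without a filter), 2 and 1 with the most abundant transcript, and 0 and 0 against a fold of 1.5. Leaving out a library gave 1 to 2 genes higher, 0 to 1 lower and 3 to 6 other imprinted genes lower in that comparison.

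Directions turned as follows, in Tg-RKIP against FVB. Igf2 was 0.078 with library size only and 0.66 or 0.63 with limma on TPM at the smaller and larger pseudocount. Grb10 was 0.23 with library size only, 0.049 with mitochondrial and Pebp1 reads set aside, 0.30 or 0.29 with limma and 0.43 with its most abundant transcript. Mest was -0.0045 without a filter, -0.79 with its most abundant transcript, and -0.054 to 0.064 with a library left out. Cdkn1c was -0.0003 without a filter and -0.075 to 0.066 with a library left out. Against the Tg-GRK2 label, Igf2 was 0.0023 with library size only and 0.62 or 0.59 with limma, Grb10 0.13, 0.16 and 0.57 with library size, limma and the most abundant transcript, and Mest -0.027 with the last. In the Tg-GRK2 label against FVB, limma gave H19 -0.084 or -0.080, Peg3 0.011 or 0.0087, and Mest 0.13 or 0.11, the most abundant transcript gave Meg3 -0.020 and Grb10 -0.14, and leaving out a library took Peg3 from -0.075 to 0.013. The causes were not tested.

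No paired design was found, since libraries with the same number correlated at -0.041 to 0.042 in their deviations from group means and those with other numbers at -0.032 to 0.059. With the replicate number as a block, 4 genes were called higher and 3 lower for Tg-RKIP against FVB, and no call on the 9 genes changed. Depth limits Dlk1, Rtl1, Mirg and Phlda2, which stayed below the filter.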
